A study of Schizosaccharomyces pombe with 6 samples.

Results

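Antisense RNAs are transcripts made from the strand opposite to a gene. The features described here are the annotated antisense RNAs of fission yeast, Schizosaccharomyces pombe, that carry a non-coding identifier and whose product description in the deposited comparison begins with antisense. Of 694 such features, 102 also described as a possible alternative UTR and 8 named polyadenylated prl RNAs were left out, which gave 584 antisense RNAs among 6986 features counted. The sense partner is the gene named before the word antisense in the feature's name. A sense name was given for 536 of them and 532 were matched to a counted gene, covering 517 distinct genes. The other 48 had no sense name in that column.

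Polyadenylated RNA was sequenced from 2 strains growing logarithmically at 30 °C in the rich medium YES. The mutant group held 3 libraries of strain STF19, h+ seb1-G476S with rpb1-CTD-WT29::KanMX, and the wild-type group held 3 libraries of h+ rpb1-CTD-WT29::NatMX. Both strains therefore carried a drug marker at rpb1, the gene of the largest RNA polymerase II subunit, but KanMX in the mutant and NatMX in the wild type, and the marker cannot be told apart from the seb1 allele. Each group has a single strain number in the labels, and its libraries are described as biological replicates in the series' design text.

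Seb1 binds nascent RNA and RNA polymerase II and is needed for the polymerase to stop and for RNA 3' ends to form. In fission yeast, antisense RNAs arise from promoters inside or behind genes, from divergent promoters and from transcription that runs past the end of a neighbouring gene. They are kept low by the nuclear exosome, by its TRAMP and MTREC cofactors, by the RNA interference machinery and by chromatin factors that close promoters inside genes. The series title calls the allele a gain of function, from a screen for mutants that relieve genes silenced by transcription of a neighbouring long non-coding RNA. The comparison of mutant with wild type asks what that allele does to antisense RNA.

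Depth was 23705340 to 27910803 counts per mutant library and 21013941 to 24496579 counts per wild-type library. Levels are CPM, the usual depth-scaled count, with library totals scaled by TMM so that most features are level between libraries, and 1 count was worth 0.0371 to 0.0445 CPM. The seb1 mRNA was at 368, 361 and 341 CPM in mutant libraries and at 133, 119 and 108 CPM in wild-type libraries, and a count per gene does not show which allele was read. The phosphate genes tgp1, pho1 and pho84 were higher, with log2 fold changes of 3.21, 1.92 and 0.49. Wild-type replicate 3 stood apart most, with a correlation of log2 CPM of 0.991 with wild-type replicate 1 and 0.993 with wild-type replicate 2, as a description. It was the highest wild-type library for 249 of 518 tested antisense RNAs and for 92 of the 217 that were called higher. A level is a mean over the culture, so more RNA per cell and more cells that make it cannot be told apart.

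The names were checked against the RefSeq annotation of assembly ASM294v3. It placed 571 of the 584 features by identifier, and 510 overlapped the named sense gene on the opposite strand. Another 6 were not opposite to it and 3 lay next to it without overlap. Lengths ran from 206 to 5317 bases with a median of 1451. Of the placed features, 49 overlapped another counted feature on their own strand.

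Antisense RNA was more abundant in the mutant. Summed over all 584 features it reached 5092, 5152 and 5119 CPM in mutant libraries, against 3309, 3534 and 3750 CPM in wild-type libraries, and the groups did not overlap. As a share of counts this was 0.476%, 0.497% and 0.501% in mutant libraries and 0.333%, 0.371% and 0.401% in wild-type libraries. The 5 most abundant members held 15.5% to 16% of that sum in mutant libraries and 11.2% to 13.5% in wild-type libraries. Without those 5 the sum was 4300.4 to 4329 CPM in mutant libraries and 2938 to 3244 CPM in wild-type libraries.

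The typical antisense RNA was a weak transcript in both strains. The median level of the 518 tested was 3.62 CPM in the mutant and 2.90 CPM in the wild type. Per length the antisense median was 2.59 CPM per kb in the mutant and 2.08 CPM per kb in the wild type, where tested protein-coding genes had 26.7 CPM per kb in the mutant and 28.6 CPM per kb in the wild type. Set beside its own sense gene per length, the median antisense level was 20.7% of the sense level in the mutant and 12.9% in the wild type. Of the 469 with both lengths, 117 exceeded their sense gene per length in the mutant and 78 did so in the wild type.

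A test of each feature was possible for 518 members, while 66 were too low for the count filter. Of these 66, 16 had 0 counts in every library, and none exceeded 0.665 CPM in the mutant mean or 0.467 CPM in the wild-type mean. A count of 0 allows up to 3 counts, counting error only, and does not tell an absent RNA from reads left unassigned: of the 16, 10 could not be placed in the annotation and 5 overlapped another counted feature on the same strand. Among them were tos1, tos2 and rec7-antisense-2, antisense RNAs of the meiotic recombination gene rec7. Of the tested members, 462 passed the filter's level in all 6 libraries, 43 in every mutant library but not every wild-type library (28 of these were called higher), and 4 in every wild-type library but not every mutant library.

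In edgeR's quasi-likelihood test over all 6046 tested features, 217 of the 518 antisense RNAs were higher and 54 lower in the mutant at an adjusted p under 0.05. These are 41.9% and 10.4% of the tested members, where 26.7% of all tested features were called higher and 28.4% lower. At 2-fold or more, 115 rose and 10 fell, against 5.82% of all tested features called higher and 3.27% called lower at that size. The 3 mutant values were all above the 3 wild-type values for 252 members and all below them for 77, where the shares over all tested features were 31.3% and 32.6%. The median log2 fold change, mutant over wild type, was 0.36 for the tested antisense RNAs and -0.0078 for all tested features. Among members past the filter in all 6 libraries, 188 were higher and 54 lower with a median of 0.30. Without mutant replicate 2 the count of lower members was 33, and with library totals alone as scaling 17 were lower by at least 2-fold.

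The size of the rises reached further than that of the falls. Of the members called higher, 102 changed less than 2-fold, 91 between 2-fold and 4-fold, and 24 by 4-fold or more. Of those called lower, the numbers were 44, 9 and 1. The rises include 28 members that passed the filter's level in every mutant library but not every wild-type library. The falls include 0 of the reverse kind, and the sizes were not counted without such members. The middle of the tested members, between its quartiles, spanned log2 fold changes of -0.10 to 0.94.

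Other classes of feature were set beside these members, with no test between classes. Antisense RNAs that are also described as a possible alternative UTR shifted in the same direction as the members. Of 94 tested, 51 (54.3%) were called higher and 8 (8.51%) lower, beside 41.9% and 10.4% of the tested members. Their median log2 fold change was 0.57. Intergenic RNAs and protein-coding genes were more often lower than higher. Intergenic RNAs had 43 higher and 67 lower among 237 tested, with a median of -0.11. Protein-coding genes had 1202 higher and 1562 lower among 4953 tested, with a median of -0.046.

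**Figure D1:**
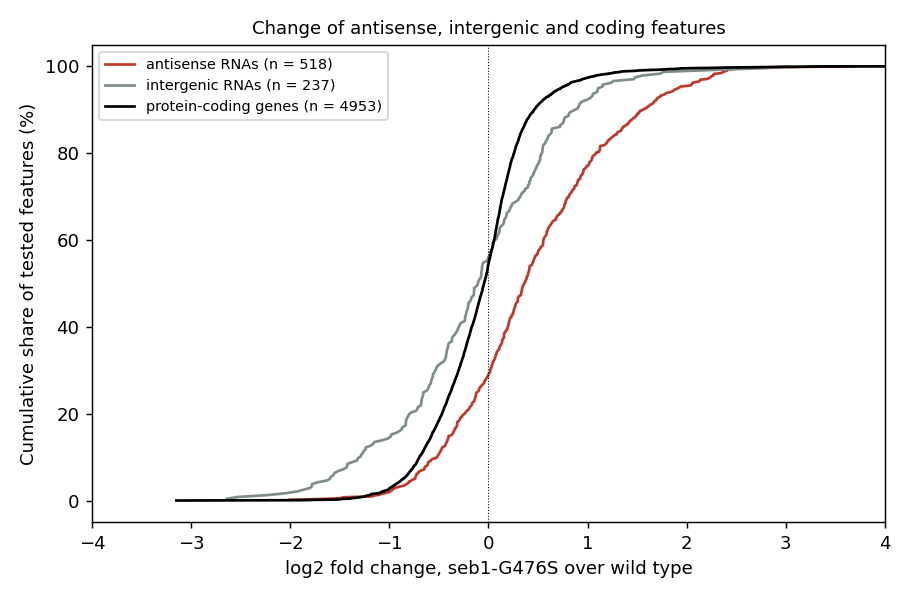
Cumulative share of tested features (percent) against the log2 fold change of seb1-G476S over wild type, for 518 antisense RNAs, 237 intergenic RNAs and 4953 protein-coding genes, each line 1 class. The antisense line lies to the right, with a median of 0.36, against -0.11 for intergenic RNAs and -0.046 for coding genes.

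The largest rise was that of spo3-antisense-1 (SPNCRNA.790, chromosome I), which lies inside spo3, a gene of spore membrane formation. It was at 1.99, 2.15 and 1.42 CPM in mutant libraries and at 0.0429, 0.117 and 0.267 CPM in wild-type libraries. The groups were far apart, but the wild-type values are those of a few counts, which limits the precision of the fold change (log2 value 3.68, SE 0.414, adjusted p = 0.000116). The spo3 mRNA went the other way, at 23.9, 22.7 and 22.4 CPM in mutant libraries and 43.3, 41.7 and 40.9 CPM in wild-type libraries (log2 fold change -0.87, adjusted p = 5.7e-05).

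SPCC1919.05-antisense-2 (SPNCRNA.584, chromosome III) was next in size. It was at 1.81, 1.82 and 1.72 CPM in mutant libraries and at 0.30, 0.194 and 0.223 CPM in wild-type libraries, a log2 fold change of 2.88. Here too the wild-type values are those of a few counts, which limits the precision of the fold change. Its sense partner encodes Ski3, of the Ski complex that feeds mRNA to the cytoplasmic exosome. The annotation places this feature over a coding gene on its own strand, so its count may not be independent of that gene.

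Among members at higher levels, rad8-antisense-1 (SPNCRNA.617, chromosome I) was at 50.5, 47.1 and 45.8 CPM in mutant libraries and at 6.95, 8.28 and 9.97 CPM in wild-type libraries. Its groups were far apart (log2 fold change 2.51, SE 0.135, adjusted p = 1.49e-06). The mRNA of rad8, a ubiquitin ligase of DNA damage tolerance, had a log2 fold change of -0.25 and was not called (adjusted p = 0.0613), but it was called lower with library totals alone as scaling (0.0344) and without wild-type replicate 1 (0.0197). The antisense RNA thus stood at 66.4% of its sense gene per length in the mutant and at 9.80% in the wild type.

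The antisense RNA of cdc28, an RNA helicase gene of pre-mRNA splicing, was at 197, 197 and 196 CPM in mutant libraries and at 30.2, 37.3 and 58.9 CPM in wild-type libraries (SPNCRNA.1451, chromosome II). Wild-type replicate 3 was nearest to the mutant (log2 fold change 2.22, SE 0.192, adjusted p = 2.61e-05). The cdc28 mRNA was not called (log2 fold change 0.33, adjusted p = 0.089), but without wild-type replicate 3 it was called higher at 0.56 (adjusted p = 3.85e-05). The antisense RNA of tti1, a gene of the ASTRA complex, likewise had wild-type replicate 3 nearest to the mutant, at 166, 175 and 160 CPM in the mutant and 30.0, 40.6 and 64.0 CPM in the wild type (SPNCRNA.1195, chromosome III). The antisense change was 1.90 on the log2 scale (SE 0.212, adjusted p = 0.000109), and the tti1 mRNA also rose, by 0.74 (adjusted p = 0.00344).

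Opposite osh3, a gene of sterol transfer between membranes, antisense RNA was at 51.2, 55.9 and 51.6 CPM in mutant libraries and at 9.70, 9.25 and 14.1 CPM in wild-type libraries, a log2 fold change of 2.27 (SPNCRNA.747, chromosome I). Its sense mRNA was not called, at 56.4, 63.6 and 66.1 CPM in mutant libraries and 50.4, 54.7 and 81.0 CPM in wild-type libraries, where replicate 3 again stood apart. Without wild-type replicate 3 the osh3 mRNA was called higher at 0.23 on the log2 scale (adjusted p = 0.0234).

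Members antisense to a pair of related DNA repair genes moved in opposite directions. Opposite mag2 antisense RNA was at 35.1, 20.3 and 21.9 CPM in mutant libraries and 3.95, 4.59 and 5.39 CPM in wild-type libraries, a log2 fold change of 2.47 (SPNCRNA.1487, chromosome II). The mag2 mRNA itself was at most 0.172 CPM in mutant libraries and 0.267 CPM in wild-type libraries and was not tested. Opposite mag1 antisense RNA was at 3.20, 3.01 and 2.58 CPM in mutant libraries and 5.49, 6.76 and 5.87 CPM in wild-type libraries, a log2 fold change of -1.04 (SPNCRNA.864, chromosome I). The mag1 mRNA was also called lower, at -0.82 (adjusted p = 0.0139), a call lost without mutant replicate 1 (0.0551) or 2 (0.0621). Both genes encode DNA-3-methyladenine glycosylases, which remove alkylated bases.

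The remaining members of the 12 largest rises had log2 fold changes of 2.27 to 2.42. They are antisense to dhc1, num1 and rec12, described with the meiotic genes below, to cid14, described with the decay factors, and to amt2, SPAC10F6.08c and SPCC23B6.02c. The amt2 gene encodes an ammonium transporter of the plasma membrane, and its antisense RNA was at 1.99, 2.97 and 3.62 CPM in mutant libraries and 0.30, 0.389 and 0.935 CPM in wild-type libraries. SPAC10F6.08c encodes the Ino80 remodelling complex subunit Nht1, and its antisense RNA was at 1.64, 1.48 and 1.25 CPM in mutant libraries and 0.257, 0.466 and 0.089 CPM in wild-type libraries. SPCC23B6.02c-antisense-1, opposite a gene annotated as a pre-ribosomal factor, was at 7.73, 8.31 and 8.14 CPM in mutant libraries and 1.54, 2.14 and 1.29 CPM in wild-type libraries. The antisense RNAs of amt2, SPAC10F6.08c and cid14 had some wild-type libraries under the filter's level of 0.415 CPM. Such low values limit the precision of these 3 fold changes.

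The largest fall was that of ctf8-antisense-1 (SPNCRNA.1060, chromosome I), antisense to a subunit gene of the Ctf18 clamp loader. It was at 2.46, 2.19 and 2.71 CPM in mutant libraries and 10.3, 10.2 and 9.03 CPM in wild-type libraries (log2 fold change -2.0, SE 0.154, adjusted p = 1.17e-05). The ctf8 mRNA was also called lower, at -0.61 (adjusted p = 0.0236). That call was lost without mutant replicate 1 (0.0834) or 2 (0.0635) or wild-type replicate 2 (0.0604). The largest absolute loss in this group was that of SPNCRNA.1626 (chromosome II), a member with no sense name, at 39.3, 41.6 and 42.9 CPM in mutant libraries and 120, 128 and 99.3 CPM in wild-type libraries. On the log2 scale this is a change of -1.49 (SE 0.0943, adjusted p = 4.18e-06).

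Second in size of fall was ist1-antisense-1, antisense to a gene of multivesicular body sorting, at 1.12, 1.04 and 1.72 CPM in mutant libraries and 4.51, 3.54 and 4.18 CPM in wild-type libraries, a log2 fold change of -1.66. The meiotic antisense RNA meu16, antisense to mde6 by an alternative name, was at 1.34, 1.52 and 1.12 CPM in mutant libraries and 5.54, 3.54 and 1.96 CPM in wild-type libraries (log2 fold change -1.46). As a ratio of the highest to the lowest, its wild-type libraries lay farther apart than those of the other 11 falls. SPNCRNA.1560 and the antisense RNAs of SPBC336.13c, SPBC106.12c, pep3, meu31 and SPBC12C2.11 had log2 fold changes of -1.17 to -0.98. Of the sense mRNAs of these, that of pep3 was called lower (-0.37) and those of meu31 (0.61) and SPBC12C2.11 (0.26) higher. Each of these mRNA calls was lost in some alternative, and the mRNAs of SPBC336.13c and SPBC106.12c were not called. That of SPBC336.13c was close to a call (log2 fold change -0.38, adjusted p = 0.0516). It was called lower with RLE scaling (0.0499), with library totals alone (0.0212) and without wild-type replicate 1 (0.0447). SPAC13F5.07c-antisense-1 was at -1.17 (adjusted p = 0.0116), and this call was lost without mutant replicate 2 (adjusted p = 0.0532) or wild-type replicate 2 (0.0505).

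**Figure D2:**
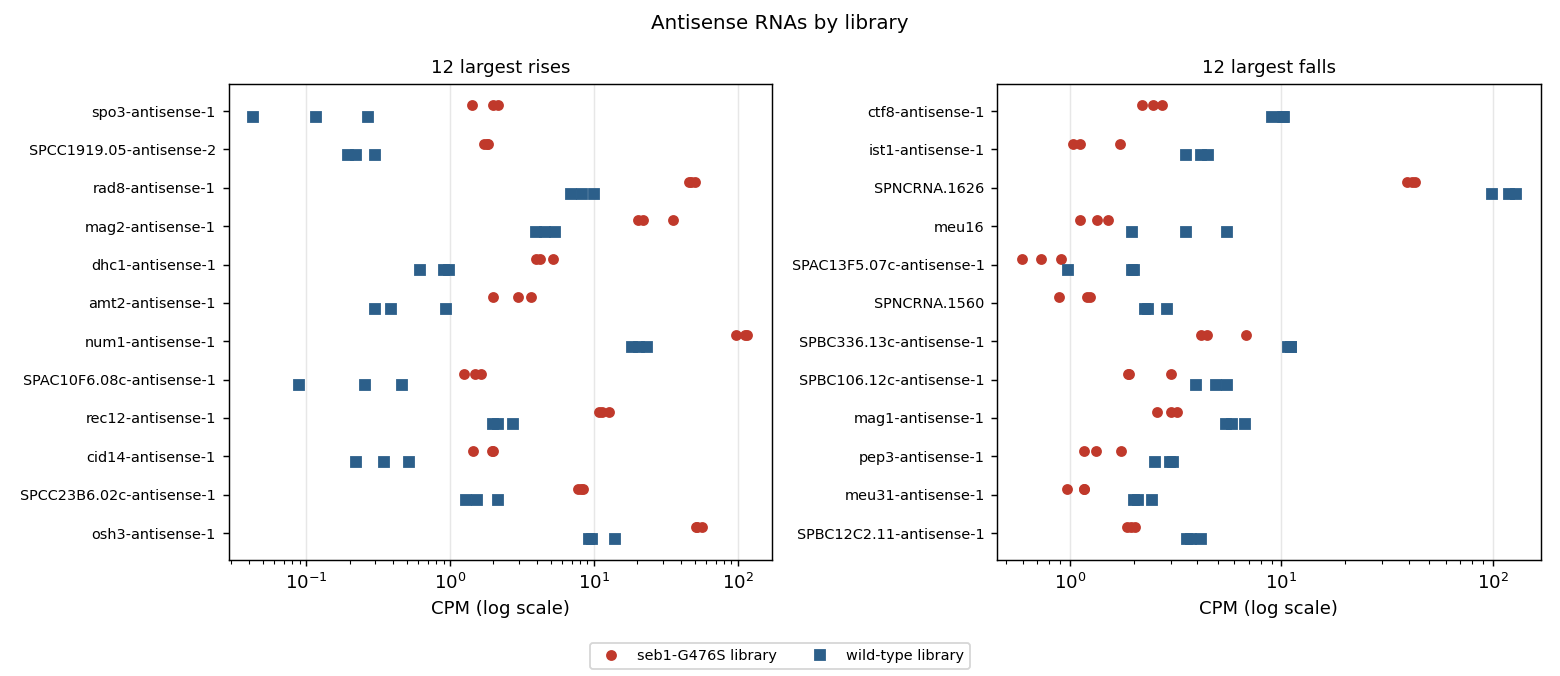
CPM on a log axis of the 12 antisense RNAs with the largest rise (left) and the 12 with the largest fall (right), each point 1 library, circles for seb1-G476S and squares for wild type. No row has overlapping groups, which the choice of these members required, and most rows lie below 10 CPM in both groups.

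The most abundant members did not all change. SPBC215.07c-antisense-1, opposite the gene of the PWWP domain protein Pdp2, was at 218, 239 and 237 CPM in mutant libraries and 137, 162 and 198 CPM in wild-type libraries. Its log2 fold change of 0.48 was called (adjusted p = 0.0055), but not when scaled by library totals alone (adjusted p = 0.0548). SPBC28E12.02-antisense-1, opposite an RNA-binding protein gene, was at 123, 131 and 118 CPM in mutant libraries and 84.9, 95.3 and 106 CPM in wild-type libraries (log2 fold change 0.38), a call also lost with library totals alone (adjusted p = 0.052).

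Antisense to the meiotic kinase gene spo4, RNA was at 87.0, 80.3 and 80.9 CPM in mutant libraries and 89.1, 86.5 and 79.4 CPM in wild-type libraries. The groups overlapped (log2 fold change -0.04, adjusted p = 0.628), though scaling by library totals alone made it a call of lower at -0.16 (adjusted p = 0.0318). The spo4 mRNA was at 0.0432 CPM or less in mutant libraries and 0.0858 CPM or less in wild-type libraries, so nearly all RNA counted at this locus was antisense in both strains.

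Meiotic genes are kept silent in growing cells, and several are covered by antisense RNA. A list of meiosis and sporulation genes was made by gene name alone, and it also takes in genes such as mcp60 and mde1. Of 34 members antisense to genes of this list, 32 were tested, with 15 higher and 4 lower and a median log2 fold change of 0.23. Of all tested members, 41.9% were higher and 10.4% lower, with a median of 0.36. Outside that list, num1 and dhc1, which move the nucleus in meiotic prophase through dynein, had antisense RNA and mRNA that were both higher. Opposite num1, which encodes the cortical anchor of dynein, antisense RNA was at 97.4, 116 and 112 CPM in mutant libraries and 18.3, 20.5 and 23.5 CPM in wild-type libraries (log2 fold change 2.38, SE 0.104, adjusted p = 3.64e-07). The num1 mRNA was at 8.85, 11.8 and 13.3 CPM in mutant libraries and 2.15, 2.41 and 3.74 CPM in wild-type libraries (log2 fold change 2.04, adjusted p = 0.000129).

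Opposite dhc1, the dynein heavy chain gene, antisense RNA was at 4.23, 3.97 and 5.17 CPM in mutant libraries and 0.901, 0.622 and 0.979 CPM in wild-type libraries, a log2 fold change of 2.42. The dhc1 mRNA was at 58.4, 56.3 and 52.1 CPM in mutant libraries and 26.3, 27.4 and 25.5 CPM in wild-type libraries (log2 fold change 1.07, adjusted p = 1.17e-05). mcp6-antisense-1, opposite a gene of the same nuclear movement, was at 16.7, 23.5 and 20.5 CPM in mutant libraries and 4.03, 5.32 and 4.45 CPM in wild-type libraries (log2 fold change 2.13). The mcp6 mRNA was at 0.52 CPM or less in every mutant library and 0.445 CPM or less in every wild-type library.

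rec12-antisense-1, opposite the gene of the endonuclease that starts meiotic recombination, was at 12.8, 11.3 and 10.8 CPM in mutant libraries and 2.15, 1.98 and 2.71 CPM in wild-type libraries, a log2 fold change of 2.35. The rec12 mRNA was at 0.993, 1.19 and 1.38 CPM in mutant libraries and 1.16, 1.59 and 1.47 CPM in wild-type libraries and was not called (log2 fold change -0.25, adjusted p = 0.375). Per length the antisense RNA stood at 723% of the rec12 mRNA in the mutant and 120% in the wild type. mug27-antisense-1, opposite a meiotic kinase gene, had a log2 fold change of 1.83 with all libraries under 1 CPM, and the mug27 mRNA one of 1.26, a call lost without wild-type replicate 2 (adjusted p = 0.0545). isp3-antisense-1, opposite a spore wall gene, rose by 1.5 on the log2 scale, and its mRNA by 1.19.

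Antisense RNAs of mating genes were mixed. Of 5 tested, 1 was higher and 2 were lower, and the median log2 fold change was 0.06. Among all tested members, 41.9% were higher and 10.4% lower. fus1-antisense-1, opposite the formin gene of cell fusion, was at 26.6, 25.2 and 23.8 CPM in mutant libraries and 9.91, 8.86 and 6.72 CPM in wild-type libraries (log2 fold change 1.57, adjusted p = 4.79e-05). mfm3-antisense-1, opposite a gene of the M-factor pheromone, was at 5.61, 6.27 and 7.49 CPM in mutant libraries and 11.2, 12 and 14.3 CPM in wild-type libraries (log2 fold change -0.95). That of map1, a mating transcription factor gene, was called at -0.57 (adjusted p = 0.0457), and the call was lost without any library other than wild-type replicate 3 (adjusted p = 0.0595 to 0.154), in DESeq2 (0.238) and with no count filter (0.0593). The map1 mRNA was called lower, at -0.84 (adjusted p = 0.0103), and the mRNAs of fus1 and mfm3 were not called.

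Of the phosphate genes, only asp1 and aps1 had a member among these antisense RNAs, and seb1, pho1, pho84 and tgp1 had none. asp1-antisense-1, opposite the inositol pyrophosphate synthase gene, was at 1.90, 1.93 and 1.81 CPM in mutant libraries and 0.386, 0.233 and 0.757 CPM in wild-type libraries (log2 fold change 2.05, adjusted p = 0.000767). aps1-antisense-1, opposite an inositol pyrophosphate phosphatase gene, was at 1.90, 1.97 and 1.68 CPM in mutant libraries and 0.729, 1.09 and 2.14 CPM in wild-type libraries and was not called (log2 fold change 0.50, adjusted p = 0.221).

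Other groups of sense genes held few members, and of all tested members 41.9% were higher and 10.4% lower. Of 4 tested antisense RNAs of termination and 3' end processing genes, that of pab2 was higher, at 7.73, 7.39 and 7.37 CPM in mutant libraries and 4.20, 3.92 and 4.98 CPM in wild-type libraries (log2 fold change 0.78), and those of rhn1, yth1 and nab3 were not called. Of 2 tested from stress genes, both were lower: the antisense RNA of cta3, a cation ATPase gene, at -0.58 and that of sty1, the stress MAP kinase gene, at -0.43. The sty1 antisense call (adjusted p = 0.0322) was lost without any 1 library other than wild-type replicate 1 (0.056 to 0.104). The sty1 mRNA was also called lower, at -0.54 (adjusted p = 4.72e-05), while the cta3 mRNA was higher, as described below. Of 3 tested from cell cycle genes, that of cdc2 was called at 1.17 (adjusted p = 0.0137), and the call was lost without mutant replicate 2 (0.0592).

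Ribosomal protein genes have some of the most abundant mRNAs. Of 7 tested antisense RNAs of this group, 3 were higher and 0 lower, and the median log2 fold change was 0.96. Of all tested members, 41.9% were higher and 10.4% lower, with a median of 0.36. rpl1801-antisense-1 was at 0.95, 0.928 and 0.689 CPM in mutant libraries and 0.215, 0.233 and 0.445 CPM in wild-type libraries, and over all libraries its count was 0.0222% of the sense count. Wild-type replicates 1 and 2 were under the filter's level of 0.415 CPM. The rpl1801 mRNA had a log2 fold change of 0.24, against 1.53 for its antisense RNA. The antisense calls of rpl2001 (log2 fold change 1.08) and rpl1002 (0.96) were lost in DESeq2 (adjusted p = 0.0855 and 0.195) and without mutant replicate 1 (0.0612 and 0.0795). That of rpl1002 was also lost without mutant replicate 3 (0.0733), wild-type replicate 2 (0.0922) or wild-type replicate 3 (0.0563).

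The libraries were made with a stranded kit, but the sources used here do not give the strand option used in counting, and the part of sense reads in these values was not tested. Members whose count was under 5% of the sense count, where such reads would weigh most, had 55 higher and 9 lower among 150 tested, and their sense genes a median log2 fold change of 0.06. Members at 5% or more had 145 higher and 38 lower among 319, with sense genes at a median of -0.30. Of 93 sense genes lying wholly under a member in the annotation, 84 were tested, with a median of 22.9 CPM in the mutant and 30.8 CPM in the wild type.

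The sense partners were more often lower than higher. Of 498 tested, 98 were higher and 183 lower, and the median log2 fold change was -0.14, where protein-coding genes that are no sense partner had 1104 higher and 1380 lower among 4457 and a median of -0.035. With library totals alone as scaling, 71 sense partners were higher and 231 lower, so that calls of higher made up 23.5% of all calls in place of 34.9%.

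Antisense and sense changes could be set side by side for 453 pairs. Where the antisense RNA was higher, the sense mRNA was higher in 32 pairs, lower in 88 and not called in 74, so that 45.4% of these 194 sense genes were lower. Where the antisense RNA was not called, the sense mRNA was higher in 38 pairs, lower in 73 and not called in 104, and 34.0% were lower. Where the antisense RNA was lower, the numbers were 14, 13 and 17. The 88 pairs became 58 without mutant replicate 1 and likewise 58 without mutant replicate 2, and 89 without wild-type replicate 3. Without mutant replicate 1 or 2, only 191 or 184 antisense RNAs were called higher and 141 or 138 sense partners lower. The shares of 45.4% and 34.0% were not compared in those fits. The 32 pairs became 21 without mutant replicate 3 or without wild-type replicate 2, and 17 when scaled by library totals alone. The pairs share libraries and scaling, and no test of a relation was run. The sense genes of members called higher had a median level of 25.4 CPM in the mutant and 31.8 CPM in the wild type, and those of uncalled members 30.1 CPM in the mutant and 34.1 CPM in the wild type.

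**Figure D3:**
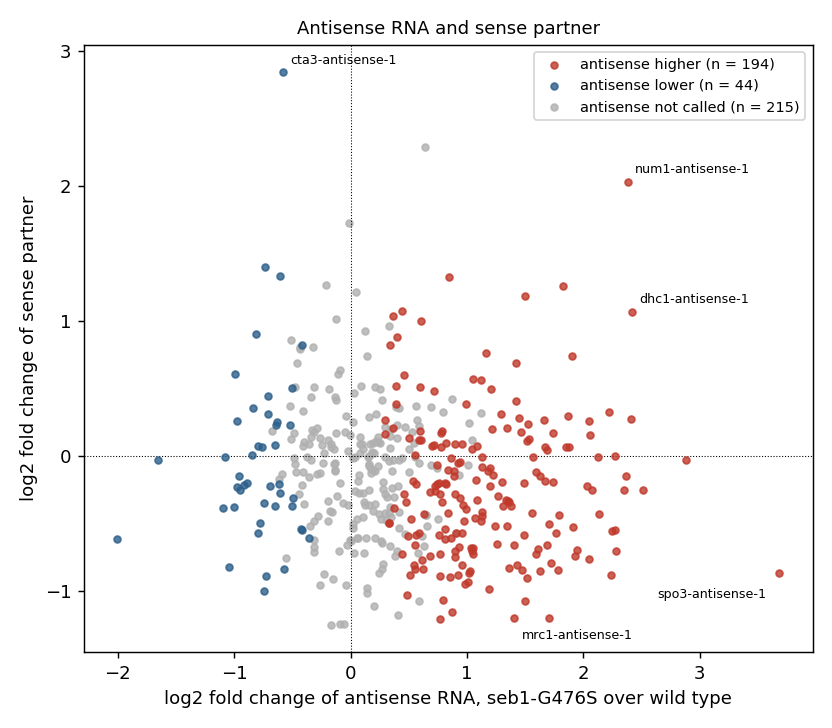
Log2 fold change, seb1-G476S over wild type, of each antisense RNA (horizontal axis) and of its sense partner (vertical axis) for 453 pairs, coloured by the call of the antisense RNA. The 194 pairs with a higher antisense RNA lie on both sides of the horizontal zero line, 88 of them with a sense gene called lower and 32 with one called higher.

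Pairs called in opposite directions were ranked only where the antisense RNA was otherwise named or changed by at least 2-fold. Among these, cta3 had the largest change in the sense mRNA. The cta3 mRNA was at 36.6, 35.5 and 34.5 CPM in mutant libraries and 4.59, 4.66 and 5.56 CPM in wild-type libraries (log2 fold change 2.85, SE 0.122, adjusted p = 3.4e-07). Its antisense RNA was at 7.99, 8.65 and 9.48 CPM in mutant libraries and 12.3, 12.6 and 14.2 CPM in wild-type libraries (log2 fold change -0.58, adjusted p = 0.0046). Per length, antisense RNA was 32.0% of the cta3 mRNA in the mutant and 345% in the wild type.

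The reverse was seen at mrc1, which encodes claspin, a mediator of the replication checkpoint. Its antisense RNA was at 42.2, 40.0 and 41.0 CPM in mutant libraries and 14.3, 15.9 and 16.2 CPM in wild-type libraries (log2 fold change 1.41, SE 0.0969, adjusted p = 6.63e-06). The mrc1 mRNA was at 11.7, 13.2 and 14.2 CPM in mutant libraries and 25.8, 23.4 and 40.3 CPM in wild-type libraries (log2 fold change -1.20, adjusted p = 0.000895). Per length, the antisense RNA was 293% of the mRNA in the mutant and 48.0% in the wild type.

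Further pairs with a higher antisense RNA and a lower mRNA were SPAC13C5.04, a glutamine amidotransferase family gene, with log2 fold changes of 1.70 for the antisense RNA and -1.20 for the mRNA. SPBP8B7.18c, annotated as a phosphomethylpyrimidine kinase, had 1.5 for the antisense RNA and -1.07 for the mRNA. The values at ofd2, a histone H2A dioxygenase gene, were 1.19 for the antisense RNA and -0.98 for the mRNA. At SPBC215.07c the mRNA was at 9.24, 9.06 and 11.2 CPM in mutant libraries and 18.8, 20.0 and 21.3 CPM in wild-type libraries, a log2 fold change of -1.03.

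The position of the antisense RNA on its gene, from the annotation, was set beside the calls with no test between positions. Members inside the sense gene had 50 higher and 8 lower among 101 tested, and the median log2 fold change was 0.60. Those running past the sense gene's 5' end only had 77 higher and 20 lower among 196, with a median of 0.39. Those past the 3' end only had 31 higher and 7 lower among 74 (median 0.33), and those past both ends 38 higher and 11 lower among 90 (median 0.30). In this order the shares higher were 49.5%, 39.3%, 41.9% and 42.2%, beside 41.9% of all tested members and 26.7% of all tested features. The shares lower were 7.92%, 10.2%, 9.46% and 12.2%, beside 10.4% of all tested members and 28.4% of all tested features.

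The coding gene next upstream of the antisense RNA, outside the sense gene, was on the same strand for 167 tested members, so that transcription past its end would run into the antisense RNA. Of these, 76 were higher and 16 lower, and the median log2 fold change was 0.56. Where that upstream gene was itself higher, 16 of 43 antisense RNAs were higher. Where it was lower, 23 of 49 were, and where it was not called, 36 of 69 were. These shares are 37.2%, 46.9% and 52.2%. For 297 tested members the upstream gene pointed away, and 121 of these were higher and 30 lower, with a median of 0.33. The shares higher were thus 45.5% with the upstream gene on the same strand and 40.7% with it pointing away. Of all tested members 41.9% were higher, and of all tested features 26.7%. No test between these groups was run. How much of a count comes from transcription that began in the upstream gene was not tested.

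The rises were spread over chromosomes and levels. On chromosomes I, II and III, 101 of 244, 80 of 189 and 35 of 84 tested members were higher. By mean CPM, the lowest 130 members (0.397 to 1.58 CPM) had 47 higher and 4 lower, the next 129 (up to 3.37 CPM) 46 higher and 17 lower, the next 129 (up to 8.12 CPM) 48 higher and 22 lower, and the top 130 (8.15 to 199 CPM) 76 higher and 11 lower. Of all tested members, 41.9% were higher and 10.4% lower. Members near the filter's level could enter the test through 1 group alone. There were 43 such members by the mutant (28 called higher) and 4 by the wild type (0 called lower). How many of these lie in each level group was not counted, so the split among the lowest members may partly come from the filter.

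For 13 sense genes more than 1 member was annotated. For 3 of these genes 2 members were tested, for 6 genes 1 member, and for 4 genes none. Both members of SPCC330.04c were called higher (log2 fold changes 0.95 and 0.58). Of the 2 members of SPCC1919.05, 1 was called higher. The antisense RNAs of vps13a, a lipid transfer protein gene, differed in call: vps13a-antisense-2 was at 7.38, 8.13 and 7.93 CPM in mutant libraries and 3.39, 2.68 and 4.09 CPM in wild-type libraries (log2 fold change 1.21, adjusted p = 0.00044), while vps13a-antisense-1 was at 7.17, 8.91 and 7.67 CPM in mutant libraries and 4.12, 5.25 and 10.6 CPM in wild-type libraries and was not called (adjusted p = 0.489). Wild-type replicate 3 stood apart for vps13a-antisense-1, and the 2 members were not tested against each other.

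Genes whose products remove or repress antisense RNA were more often lower than higher in the mutant. Of 46 in the list, all tested, 26 were lower and 4 higher, where 28.4% of all tested features were called lower and 26.7% higher. The median log2 fold change of the list was -0.33, beside -0.0078 for all tested features. Without wild-type replicate 3 the counts were 24 lower and 4 higher. The list overlaps the nuclear decay genes already known to fall in these libraries, so its direction is not independent evidence. The largest changes were in the exosome core gene rrp4, at 20.5 ± 1.0 CPM in the mutant and 40.1 ± 4.24 CPM in the wild type (SD, n = 3 each), a log2 fold change of -0.97 (edgeR adjusted p = 9.85e-05), and in red5, a gene of the complex that eliminates meiotic mRNAs, at -0.96. The helicase gene mtr4 and the zinc knuckle gene air1 of TRAMP were at -0.76 and -0.71, and swr1, which places the histone variant H2A.Z, at -0.72.

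Of 6 tested members antisense to genes of this list, 3 were higher and 1 lower, where 41.9% of all tested members were higher and 10.4% lower. At pab2 the antisense RNA and the mRNA were both called higher. The pab2 mRNA had a log2 fold change of 0.17 (adjusted p = 0.0296), a call lost with library totals alone as scaling (0.467). In 2 genes of the list the sense mRNA fell while a member antisense to it rose. The mRNA of cid14, the TRAMP poly(A) polymerase, was at 33.1, 34.8 and 39.4 CPM in mutant libraries and 50.4, 53.2 and 70.7 CPM in wild-type libraries (log2 fold change -0.70), and its antisense RNA at 1.94, 1.45 and 1.98 CPM in mutant libraries and 0.515, 0.35 and 0.223 CPM in wild-type libraries (2.28). The mRNA of hrp1, a CHD-type chromatin remodeller, had a log2 fold change of -0.65, and its antisense RNA was at 27.2, 28.2 and 26.3 CPM in mutant libraries and 12.3, 11.2 and 10.8 CPM in wild-type libraries (1.26). The antisense RNA of hip3, a gene of the HIRA histone chaperone, was called at -0.63 (adjusted p = 0.0426), a call lost in DESeq2 (0.106) and without mutant replicate 2 (0.0743) or 3 (0.14) or wild-type replicate 1 (0.0699) or 2 (0.131). The hip3 mRNA was called higher, at 0.25 (adjusted p = 0.0101).

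Among the genes of RNA interference and its heterochromatin, the argonaute gene ago1 was higher by a log2 fold change of 0.46, and the RNA-dependent RNA polymerase gene rdp1 (-0.65) and the chromodomain gene chp1 (-0.31) were lower. The dicer gene dcr1 (0.046) and the H3K9 methyltransferase gene clr4 (0.035) were not called. Elsewhere in the list mmi1, whose product marks meiotic RNA for nuclear decay, was higher by 0.33, and the 5' to 3' exonuclease genes exo2 (-0.0008) and dhp1 (-0.012) were not called.

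**Figure D4:**
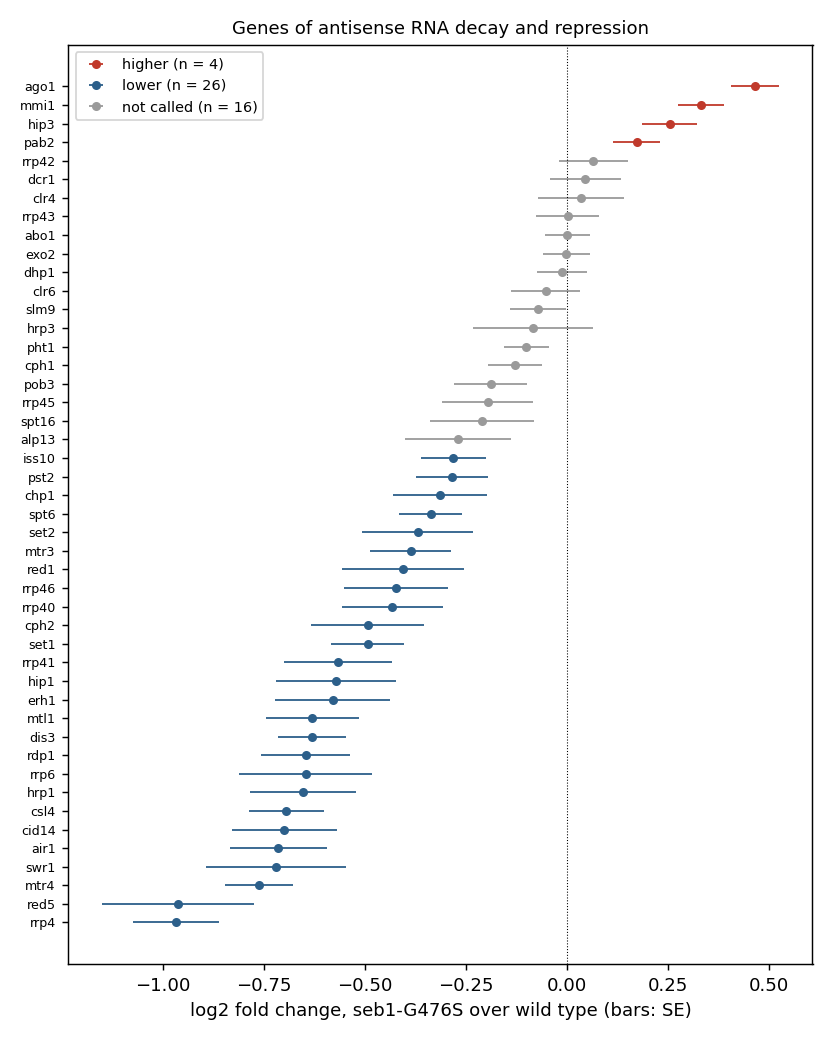
Log2 fold change, seb1-G476S over wild type, of 46 genes of antisense RNA decay and repression, with standard errors as bars, coloured by call at an adjusted p under 0.05. The plot holds 26 genes called lower, down to rrp4 at -0.97, and 4 called higher, up to ago1 at 0.46.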

How the data were processed

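The values used are raw counts of reads per feature in 6 libraries, deposited by the authors. Of the table's 6987 rows, those sharing 1 identifier were summed to give 6986 features. A second deposited table holds the authors' comparison: log2 fold changes, a test statistic (a score), p-values, and a signal of counts divided by size factors, per the file headers. Build ASM294v2 is named in the submitters' processing notes, as are DESeq2, HTSeq 0.10.0, SAMtools and HISAT2 2.1.0. Names and descriptions came from the deposited comparison. Strands, overlaps, neighbours and lengths came from RefSeq ASM294v3, which differs from that build, so none of its coordinates or sequence is given.

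Features kept by filterByExpr (minimum count 10) were tested with edgeR 4.0.16 (R 4.3.3), quasi-likelihood, TMM scaling, each test two-sided, mutant against wild type, with Benjamini-Hochberg adjustment over 6046 features and a call at an adjusted p under 0.05. SE was taken as the size of the log2 fold change divided by the root of the F statistic, with 4 residual degrees of freedom. The procedure was tested on simulated data. No 2 libraries of a group agreed within sampling noise (lowest chi-square per degree of freedom 3.81).

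The members and lists were chosen with earlier results of these data known. Genes named are the 12 largest rises and falls among called members that reached a mean of 1 CPM in either group and whose groups did not overlap, the 5 most abundant members, up to 4 called members per list of sense genes, up to 6 pairs each with sense changes opposite or alike, and called decay genes up to 6 by size; others were chosen after their values were seen. Alternatives were DESeq2 1.42.0, other scalings, no count filter, a replicate block, other member sets and leaving out each library, with those for the decay genes and the antisense and sense pairs added after seeing the data.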

Additional observations from a re-analysis of the deposited data

How the results depend on the processing

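None of the 271 antisense calls turned its direction in any of the 11 other fits, and 211 to 271 of them were kept in each. DESeq2 gave 186 higher and 42 lower. Library totals alone moved the median of all tested features to -0.13 from -0.0078 on the log2 scale and gave 178 higher, 75 lower, 17 lower by at least 2-fold and a median of 0.25. With no count filter 223 were higher and 53 lower. Same-numbered libraries of the groups deviated together with correlations of 0.36, 0.058 and 0.26, and differently numbered ones with -0.30 to 0.066. As replicate 2 showed little of this, replicate numbers were not taken as pairs in the main fit. With the replicate block 232 were higher and 63 lower. The mRNAs of rad8 (adjusted p = 0.01) and SPBC336.13c (0.0464) were then called lower and that of cdc28 higher (0.0241), and the map1 antisense call was lost (0.0587). Members at 5% or more of the sense count had 70 higher by at least 2-fold, from fewer members tested. Leaving out 1 library at a time gave 181 to 237 higher, 33 to 62 lower (33 without mutant replicate 2), 113 to 123 higher and 7 to 13 lower by at least 2-fold, a median of 0.33 to 0.42 (0.42 without wild-type replicate 3), and 76 to 105 sense partners higher and 138 to 194 lower. Of pairs with a higher antisense RNA, the sense mRNA was lower in 58 to 90 and higher in 21 to 44 with 1 library left out, and higher in 17 with library totals alone. Decay and repression genes then had 19 to 28 lower and 3 to 4 higher. The causes were not tested.

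Of the named antisense RNAs, 9 of 49 lost a call in at least 1 alternative and 0 turned direction. Sense mRNAs that were not called changed sign: fus1 was at 0.012 with the replicate block and -0.13 to 0.21 without 1 library. Without 1 library ist1 was at -0.13 to 0.067, nht1 at -0.31 to 0.10, osh3 at -0.13 to 0.23, ski3 at -0.089 to 0.011 and tho4 at -0.040 to 0.031. Library totals alone gave -0.12 for osh3, -0.023 for rpl1002 and -0.041 for rpl2001, and no count filter gave -0.0010 for osh3.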

Other observations

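Some further members rose by 4-fold or more, and they were chosen here after their values were seen. The antisense RNA of SPBC428.15 averaged 41.5 CPM in the mutant and 8.77 CPM in the wild type (log2 fold change 2.25), and the annotation places it over a coding gene on its own strand. The antisense RNA of rhp14, a nucleotide excision repair gene, averaged 25.8 CPM in the mutant and 5.88 CPM in the wild type (2.14), and that of sda1 11.8 CPM in the mutant and 2.71 CPM in the wild type (2.13). The antisense RNA of rad50, a gene of double-strand break repair, averaged 16.8 CPM in the mutant and 4.37 CPM in the wild type (1.94), just under that size.

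In the authors' deposited table, 232 of these antisense RNAs were higher and 47 lower at an adjusted p under 0.05, of 568 with an adjusted p. Of the calls made here, 254 were called in the same direction in the authors' deposited table.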
